A study of Homo sapiens with 6 samples.

Results

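Primitive streak transcription factors are the gene regulators that mark cells as they leave the epiblast to form mesoderm and endoderm. The set held 10 genes listed by symbol, which are TBXT, MIXL1, EOMES, MESP1, MESP2, GSC, LHX1, EVX1, TBX6 and MSGN1. Members were the probe sets annotated to 1 of these symbols alone. There were 14 such probe sets, out of 54675 on the array, and they covered 9 of the 10 genes, out of 19775 genes in all. MSGN1, a presomitic bHLH factor, is not analysed here.

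In the embryo the streak forms where nodal, WNT and BMP signals meet. Its cells switch on T-box factors and homeodomain factors, lose their epithelial form and move inward. Cells of the anterior streak, with GSC and LHX1, form endoderm, node and axial mesoderm. Cells of the middle and posterior streak, with MESP1 and EVX1, form lateral, cardiac and extraembryonic mesoderm. TBX6 and MSGN1 act in the paraxial mesoderm that later forms somites.

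RNA was measured on 6 one-colour arrays, 3 per group. The first group was made of mesodermal progenitors grown from H9 cells in Stemline II medium, to which activin A, BMP4, FGF2 and VEGF had been added, and sorted at day 3.5 for lacking CD326 (EPCAM) and carrying CD56 (NCAM1). The second was undifferentiated H9 cells, called hESC below. Both groups come from H9, an established human embryonic stem cell line, and so from 1 genetic background. Unsorted cells of day 3.5 are not analysed here, so the sort and the differentiation cannot be told apart. The RNA is that of a whole sample, in which fewer cells of a type and less RNA per cell cannot be told apart.

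The deposited values are linear intensities, with array medians between 31.0 and 31.2 in progenitors and between 33.1 and 36.1 in hESC. A log2 level is log2(intensity + 16) after quantile normalization, and a log2 change is the progenitor mean minus the hESC mean on that scale, which understates the change of dim genes. NCAM1, an antigen of the sort, was at 10.28 ± 0.21 in progenitors and 6.82 ± 0.13 in hESC, and EPCAM was at 9.35 ± 0.19 in progenitors and 11.69 ± 0.05 in hESC (log2 level, SD, n = 3 each). All 9 measured hESC markers were lower in the progenitors, a call made for 21.2% of all genes (limma, adjusted p under 0.05). Their log2 changes ran from -0.34 for LIN28A to -4.85 for PRDM14, with a median of -1.93 and NANOG at -4.17. LIN28A stayed bright, at 12.20 in progenitors and 12.54 in hESC. The progenitor arrays were uneven. Arrays 2 and 3 differed by more than 2-fold in 7 genes, whereas array 1 differed in 208 genes from array 2 and in 180 from array 3, and no streak factor was among any of these.

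The question put to these genes was how far a streak programme was present in cells sorted as mesodermal progenitors, against the stem cells they came from. Of the 9 measured factors 8 were higher and 1 was lower in the progenitors, with limma and a Benjamini-Hochberg adjusted p under 0.05 over all genes. A call in either direction was made for 47.9% of all genes, 26.7% higher and 21.2% lower. The 5 factors LHX1, EOMES, MESP1, MIXL1 and TBXT were higher by at least 8-fold on the log2 scale, a size that 1.36% of all genes reached. That count depended on the setting: it was 3 at a pseudocount of 64, where MIXL1 (2.91) and TBXT (2.10) lay under it, and 6 at a pseudocount of 1, where MESP2 (3.33) reached it, and it lay between 3 and 6 under all alternatives. MESP1 reached that size at 1 of its 3 probe sets. The median log2 change of the 9 factors was 3.13, against 0.04 over all genes. In all 9 factors the 3 arrays of one group lay entirely above those of the other, as in 57.3% of all genes.

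**Figure D1:**
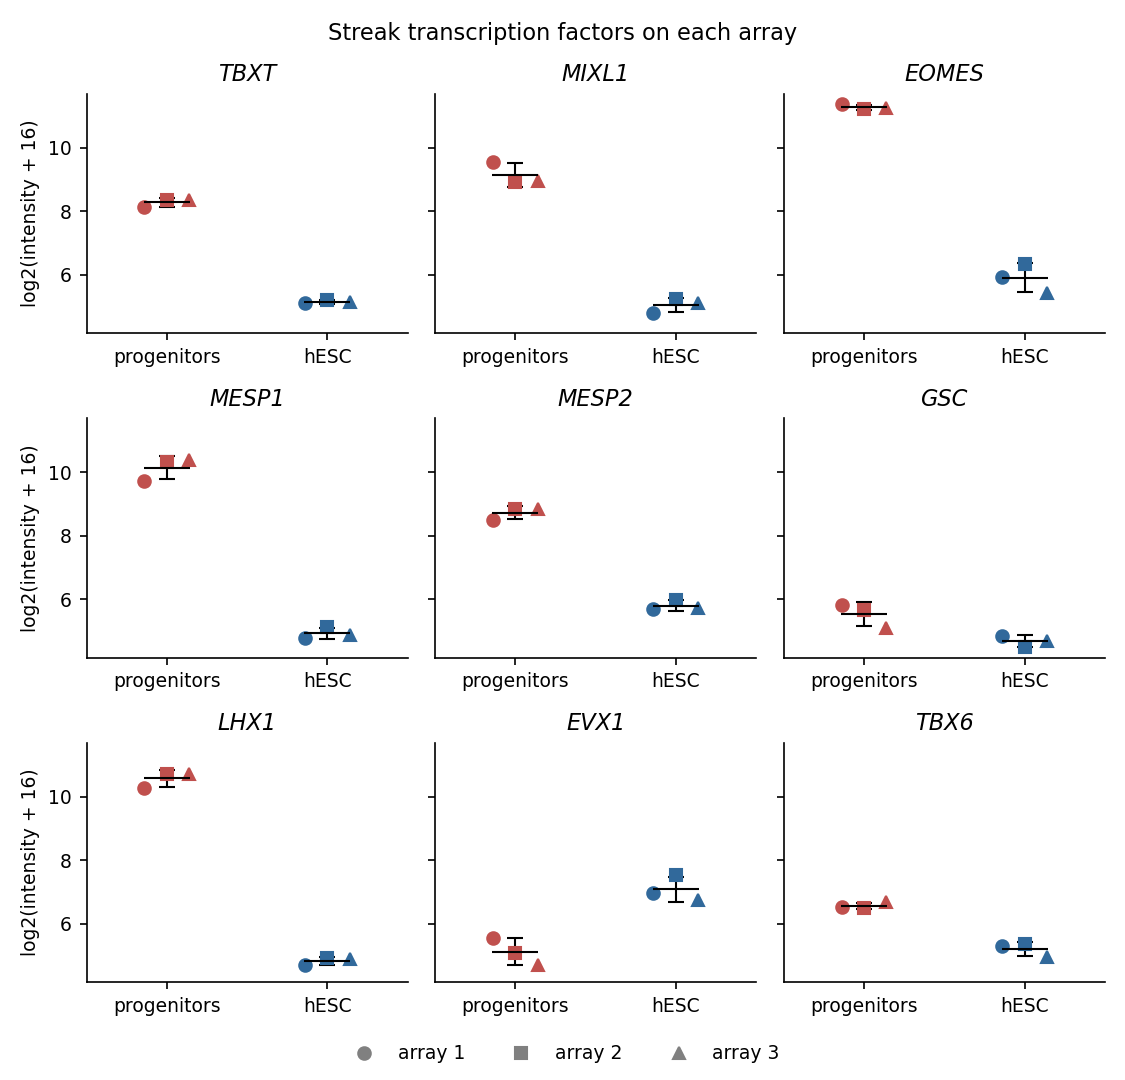
Log2(intensity + 16) after normalization of each streak factor, at its brightest probe set, on the 3 progenitor arrays (left, red) and the 3 hESC arrays (right, blue), with array number as symbol and the mean and SD (n = 3) as bar and whiskers. Progenitor values lie above all hESC values in 8 panels and below them for EVX1, and the groups come closest for GSC, at 0.24 apart.

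TBXT, or brachyury, is the T-box factor that defines the streak and the mesoderm leaving it. Its intensities were 272, 315 and 311 on progenitor arrays 1, 2 and 3, against 19.3, 23.1 and 19.3 on the hESC arrays. The arrays of each group stood close together, and array 1 was the lowest of the progenitors. The log2 change was 3.13 (SE 0.10, adjusted p = 5.6e-07).

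MIXL1, a paired-type homeodomain factor of the streak that acts early in mesendoderm, had intensities of 738, 461 and 471 in the progenitors and 12.5, 24.2 and 18.3 in hESC. Progenitor array 1 was the high one, and the groups lay far apart. The log2 change was 4.09 (SE 0.20, adjusted p = 4.13e-06).

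TBXT and MIXL1 are known targets of WNT signalling, and the windows around their start sites are shown because both hold the letters CTTTGA, the core that TCF/LEF proteins bind. The windows run from 250 bases before to 50 bases after an annotated start, are taken from RefSeq on GRCh38.p14, and are written along the gene's strand with the core, or its reverse complement, in capitals. The TBXT window is that of the more downstream of 2 annotated starts, at chr6:166167802-166168101 on the minus strand, and that of MIXL1 is at chr1:226223414-226223713 on the plus strand. The window of the other TBXT start, at chr6:166168606-166168905, does not hold these letters on either strand.
TBXT: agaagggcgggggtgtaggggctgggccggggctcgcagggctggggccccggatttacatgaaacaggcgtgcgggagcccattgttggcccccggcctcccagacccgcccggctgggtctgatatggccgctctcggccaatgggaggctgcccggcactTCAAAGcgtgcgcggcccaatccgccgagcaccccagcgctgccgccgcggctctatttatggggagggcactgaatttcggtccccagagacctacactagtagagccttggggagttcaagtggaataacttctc
MIXL1: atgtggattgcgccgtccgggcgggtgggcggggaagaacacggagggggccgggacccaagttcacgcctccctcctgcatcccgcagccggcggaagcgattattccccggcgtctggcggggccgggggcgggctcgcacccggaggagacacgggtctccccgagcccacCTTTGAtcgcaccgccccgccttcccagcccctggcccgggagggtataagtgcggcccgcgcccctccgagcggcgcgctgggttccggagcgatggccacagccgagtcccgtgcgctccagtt

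The core begins at position -76 from the start of MIXL1 and at -87 from the start of TBXT, where it lies on the opposite strand. A search of both strands found it in 3 of 9 windows of 8 matched members, the third being that of MSGN1 at -85, against 12.9% of 35116 windows of all genes. The T-box half-site GGTGTGA, searched on both strands and not overlapping with the core, was in 0 of the 9 windows, against 3.45% of all. The letters describe the windows and do not show that a protein is bound there.

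EOMES, a T-box factor needed for endoderm and, in the mouse, for the first cardiac mesoderm, had intensities of 2562, 2307 and 2329 in the progenitors. The hESC arrays gave 47.6, 69.4 and 27.5. The progenitor arrays agreed within 0.14 on the log2 scale while the hESC arrays spanned 0.91, and the gap between the groups was 4.88. The log2 change of EOMES was 5.38 (SE 0.21, adjusted p = 1.52e-06).

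MESP1, a bHLH factor that marks the earliest cardiovascular progenitors, was measured by 3 probe sets that disagreed in size. At 224476_s_at, the brightest, intensities were 825, 1233 and 1277 in the progenitors and 12.1, 20.9 and 13.5 in hESC. Progenitor array 1 was the lowest of its group, and the log2 change was 5.22 (SE 0.19, adjusted p = 1.11e-06). At 229195_at the intensities were 26.5, 38.1 and 37.9 in the progenitors and 26.0, 18.6 and 14.5 in hESC, with a log2 change of 0.59 (SE 0.15, adjusted p = 0.0176 in the limma fit over all probe sets). There progenitor array 1 and hESC array 1 nearly met, and the call was lost without progenitor array 2 (0.53, adjusted p = 0.0657) or 3 (0.53, adjusted p = 0.066) and without hESC array 2 (0.55, adjusted p = 0.0568) or 3 (0.50, adjusted p = 0.0515). It was lost as well with median centring of the arrays (0.35, adjusted p = 0.109) and when progenitor arrays 2 and 3 were averaged (0.53, adjusted p = 0.0628). The third, 243387_at, had intensities of 13.4, 8.18 and 16.1 in the progenitors and 12.0, 12.7 and 4.07 in hESC, so that the groups overlapped (log2 change 0.23, adjusted p = 0.339). The ending _s_at marks a probe set whose probes can match more than 1 transcript, and without such sets MESP1 differed by 0.59, against 5.22.

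MESP2, a bHLH factor of the MESP family that sets segment boundaries in mouse presomitic mesoderm, was higher at both of its probe sets. At 1556015_a_at the intensities were 358, 441 and 438 in the progenitors and 38.4, 51.8 and 36.9 in hESC (log2 change 2.93, SE 0.13, adjusted p = 2.79e-06). At 1556014_at they were 119, 138 and 140.01 in the progenitors and 6.63, 13.6 and 5.18 in hESC, with a log2 change of 2.64 (SE 0.14, adjusted p = 1.3e-05). The groups were apart at both, and progenitor array 1 was again the lowest.

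LHX1, a LIM homeodomain factor of the anterior streak and node that also acts in intermediate mesoderm, had the largest log2 change of the 9 factors, 5.74 (SE 0.14, adjusted p = 2.44e-07). At a pseudocount of 64 its change was 4.36, below that of EOMES (4.54). Its intensities were 1209.7, 1627 and 1624 in the progenitors, against 10.4, 15.7 and 14.0 in hESC. The progenitor arrays 2 and 3 were nearly equal, with array 1 below them by 0.45 on the log2 scale.

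GSC, the goosecoid homeodomain repressor that marks the organizer and anterior streak, was dim in both groups. Its intensities were 38.1, 33.4 and 17.2 in the progenitors and 13.6, 7.19 and 10.1 in hESC. The lowest progenitor array was 0.24 above the highest hESC array on the log2 scale, less than the 0.72 spanned by the progenitors. The log2 change was 0.84 (SE 0.19, adjusted p = 0.00915), and its size depended on the pseudocount, with 1.54 at a pseudocount of 1 and 0.36 at 64. With array weights it was 0.55 (adjusted p = 0.0336).

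EVX1, a homeodomain factor of the posterior streak, was the member that was lower. At 207914_x_at the intensities were 29.6, 17.3 and 9.62 in the progenitors and 111, 168 and 90.6 in hESC. Every progenitor array was below every hESC array, and the log2 change was -1.96 (SE 0.26, adjusted p = 0.0006). The other probe set, 231706_s_at, was at 9.26, 7.36 and 6.14 in the progenitors and 4.78, 5.57 and 9.41 in hESC. Its groups overlapped, with a log2 change of 0.10 and an interval from -0.16 to 0.37 (95%, adjusted p = 0.523). The ending _x_at marks probes that can bind unrelated transcripts, so that the decrease rests on 1 probe set of that kind. On the mean of both probe sets the change was -0.93 (adjusted p = 0.00123), and at a pseudocount of 64 it was -1.15.

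TBX6, a T-box factor that commits cells to paraxial mesoderm, was higher at both of its probe sets. At 207684_at the intensities were 74.3, 72.2 and 83.9 in the progenitors and 24.6, 28.0 and 14.9 in hESC (log2 change 1.36, SE 0.13, adjusted p = 0.000113). At 215122_at they were 34.6, 65.6 and 66.5 in the progenitors and 14.1, 22.1 and 12.6 in hESC, with a log2 change of 1.21 (SE 0.20, adjusted p = 0.00277). Groups did not overlap at either, and at a pseudocount of 64 the first change was 0.75.

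**Figure D2:**
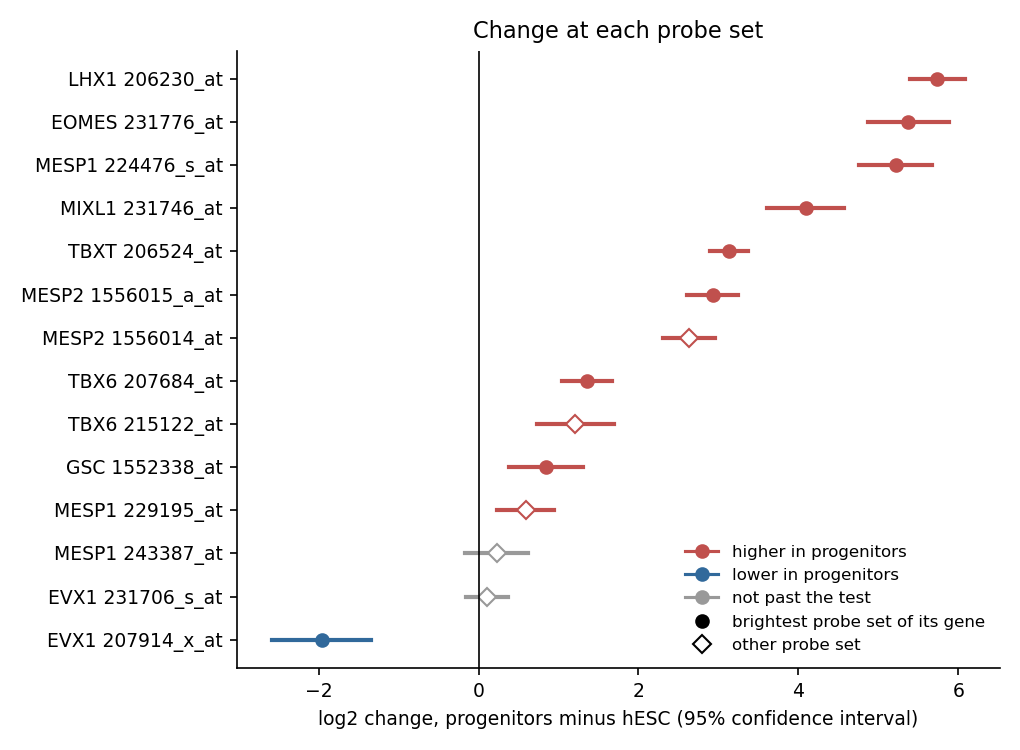
Log2 change, progenitors minus hESC, with 95% confidence intervals, for the 14 probe sets of the streak factors. Filled circles are the brightest probe set of a gene and open diamonds the others; 11 probe sets are higher, 1 is lower and 2 did not pass, with MESP1 ranging from 0.23 to 5.22 and EVX1 from -1.96 to 0.10.

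Tested singly, 11 of the 14 probe sets were higher, 1 was lower and 2 did not pass, where 40.2% of all 54613 probe sets were called, 20.3% higher and 20% lower. The groups of arrays did not overlap at 12 of the 14, against 51.2% of all probe sets. The members of the T-box family, TBXT, EOMES and TBX6, were all higher, with log2 changes from 1.36 to 5.38. The 4 homeodomain members went both ways, from -1.96 for EVX1 to 5.74 for LHX1. Their closest paralogues, from a list with 5 measured genes, had a median log2 change of 0.40. Of these 2 were higher and 3 did not pass, where 26.7% of all genes were higher. TBR1 and TBX21, T-box factors of the brain and of T cells, were higher by 0.54 and 0.40 (adjusted p = 0.0249 and 0.00424), and TBX19, the closest paralogue of TBXT, differed by 0.48 without passing and by -0.33 without hESC array 2. The TBR1 call was lost under 7 and the TBX21 call under 1 of the alternatives tried.

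Progenitor array 1 stood apart from the other progenitor arrays for some of the factors. On array 1, MIXL1, GSC, EOMES and EVX1 were higher than on both other arrays, and TBXT, MESP1, MESP2 and LHX1 were lower than on both. Relative to the mean of arrays 2 and 3, MIXL1 was higher by 0.64 and EVX1 by 0.66, while MESP1 was at -0.63 and LHX1 at -0.45 (log2 level). Of all genes, 3.41% had a larger gap than MIXL1 and 3.53% a larger one than MESP1, the median size of that gap being 0.14. The gaps of TBXT, EOMES and TBX6 were exceeded by 29.6%, 53.1% and 72.4% of all genes. On the same array NODAL stood higher than the mean of arrays 2 and 3 by 1.42 and the nodal inhibitor CER1 by 1.38. Of 10 antagonists of nodal, WNT and BMP, 9 were above that mean, with a median gap of 0.69. The median gap was 0.50 for neuroectoderm, 0.39 for endoderm, 0.14 for hESC and 0.006 for amnion and trophoblast markers. All 9 measured endothelial and blood markers lay above the mean of arrays 2 and 3 by a median of 1.40, from 0.05 for PECAM1 to 3.00 for CDH5. Between the groups 6 of these 9 were higher and 3 did not pass, where 26.7% of all genes were higher. The summed intensity of those 9 markers lay between 2006 and 6500 in the progenitors and between 655 and 710 in hESC (array range). TEK was the brightest of the 9 in both groups, at mean log2 levels of 10.34 in progenitors and 8.96 in hESC. No other marker had a mean above 6.06 in hESC, so the hESC sum is largely that of TEK. The lowest single intensity among the 9 markers was 13.4 in the progenitors, for CD34, and 1.4 in hESC, for CDH5. Their part in the differences between the progenitor arrays was not tested. Without array 1, all 9 streak factors were still called, with log2 changes of 3.86 for MIXL1, 5.43 for MESP1 and 5.89 for LHX1. Among the hESC arrays, array 2 was the highest for 8 of the 9 factors, the exception being GSC.

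**Figure D3:**
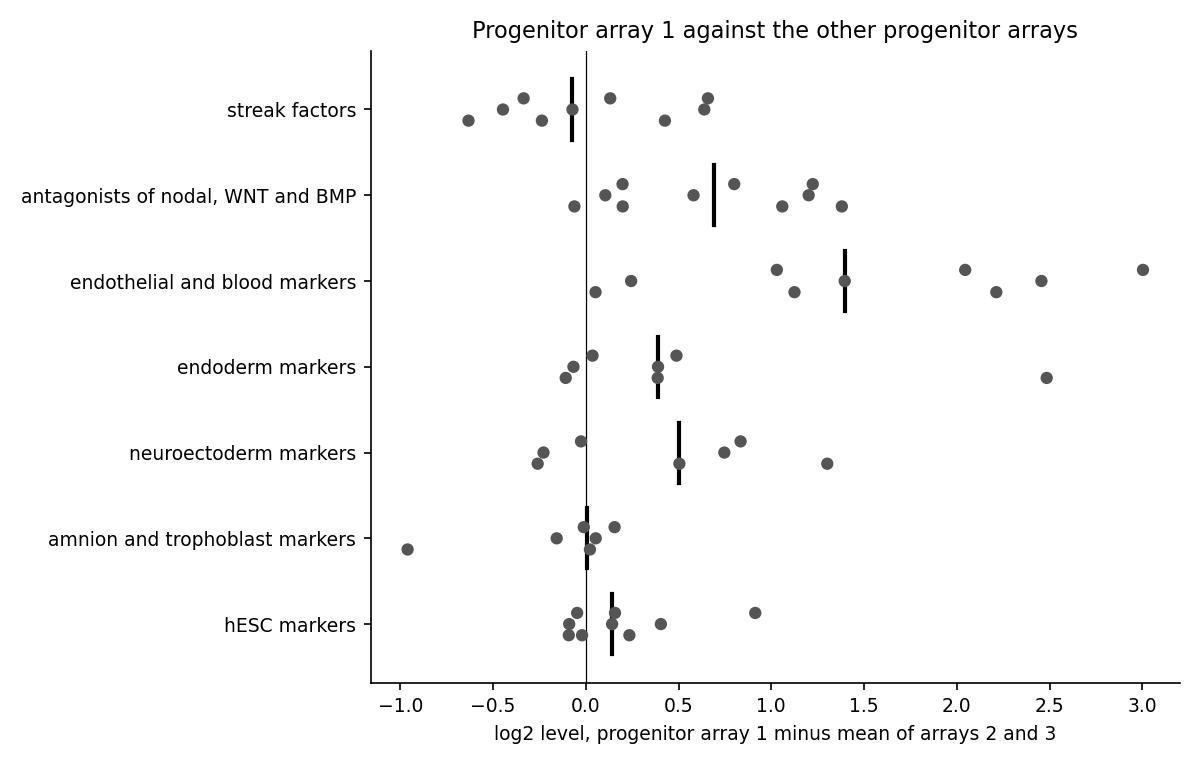
Log2 level on progenitor array 1 minus the mean of arrays 2 and 3, 1 point per gene. Shown are the streak factors, the antagonists of nodal, WNT and BMP, and lists of marker genes. The black bar is the median of each list. The streak factors spread from -0.63 to 0.66 around a median of -0.07, while the endothelial and blood markers run from 0.05 to 3.00.

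The genes around the streak factors were read from 8 lists with 76 measured genes, of which 47 were higher and 10 lower, 75% called against 47.9% of all genes. The lists were chosen with earlier results of these data known, so the 2 shares describe them and do not test them. Among 8 ligands and co-receptors that induce the streak, 3 were higher, 3 lower and 2 did not pass (median log2 change 0.30). Over all genes 26.7% were higher and 21.2% lower. BMP4, also present in the medium as protein, was higher at the RNA level by 6.11 and the nodal co-receptor CFC1 by 5.34. NODAL itself was lower, at a log2 change of -2.81, with levels of 7.00, 5.66 and 5.50 in the progenitors and 8.70, 9.41 and 8.47 in hESC. WNT8A differed by 0.31 without passing, and it passed without progenitor array 1 (0.45, adjusted p = 0.0115).

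Of 10 nuclear effectors of nodal and WNT, 6 were higher, 1 lower and 3 did not pass (median 0.54). Over all genes 26.7% were higher and 21.2% lower. LEF1, a nuclear partner of beta-catenin, was higher by 6.22, and SP5, a WNT-induced repressor, by 5.53. TCF7L1, which represses WNT targets in stem cells, was lower, at -2.03. Beta-catenin itself (CTNNB1) differed by 0.06 at its brightest probe set without passing, but its call and sign turned with the choice of probe sets (-0.33, adjusted p = 0.034, on their mean) and it was higher by 0.50 with scaling on hybridization controls. Of 10 antagonists of nodal, WNT and BMP 6 were higher, 3 lower and 1 did not pass (median 0.89), beside the same shares over all genes. DKK1, a WNT inhibitor, and CER1 were higher by 5.23 and 4.58, the nodal inhibitor LEFTY1 was lower at -5.33, and the WNT inhibitor DKK4 differed by 0.73 without passing. DKK4 differed by 0.38 without progenitor array 1 and passed without array 2 (1.00, adjusted p = 0.0233).

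Genes known to act downstream of MESP factors were mostly higher, 11 of 12, with 1 not past the test and a median of 4.12. A call of higher was made for 26.7% of all genes. HAND1, a factor of lateral and cardiac mesoderm, was higher by 7.54, SNAI2, a repressor of epithelial genes, by 6.21 and the cardiac and endodermal factor GATA4 by 4.89. RIPPLY2, a target of MESP2 in mouse somites, differed by 0.19 without passing. Of 11 presomitic and paraxial genes, 4 were higher, 2 lower and 5 did not pass (median 0.20), where 47.9% of all genes were called in either direction. DLL3, a ligand of NOTCH, and FOXC2, a forkhead factor of somites, were higher by 3.93 and 2.38, LFNG, which modifies NOTCH, was lower at -2.17, and RIPPLY1 differed by 0.01.

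Of 8 genes of anterior streak, node and endoderm, the territory of GSC and LHX1, 5 were higher, 1 lower and 2 did not pass (median 1.15). For this list and the next, the shares over all genes were 26.7% higher and 21.2% lower. GATA6, a factor of endoderm and cardiac mesoderm, was higher by 6.63, SOX17, an endoderm and endothelial factor, by 2.36 and HHEX, another such factor, by 2.67. At a pseudocount of 64 the changes of SOX17 and HHEX were 1.28 and 1.72. HHEX stood at 9.33 on progenitor array 1, at 6.78 and 6.90 on the others, and between 4.77 and 5.20 in hESC. OTX2, an anterior homeodomain factor that stem cells also express, was lower at -0.80, a call lost under 5 alternatives, among them leaving out progenitor array 2 or 3 or hESC array 2 (-0.66, -0.68 and -0.74). The notochord ligand SHH differed by -0.24 without passing, and passed with median centring of the arrays (-0.50, adjusted p = 0.016). Of 12 genes of posterior streak and lateral mesoderm 10 were higher, none lower (0 also at an unadjusted p under 0.05 in limma) and 2 did not pass, with a median of 5.04. The apelin receptor APLNR was higher by 7.61, and the factors MSX1 and GATA2 by 6.99 and 6.43, while TBX20, a cardiac T-box factor, differed by 0.11.

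**Figure D4:**
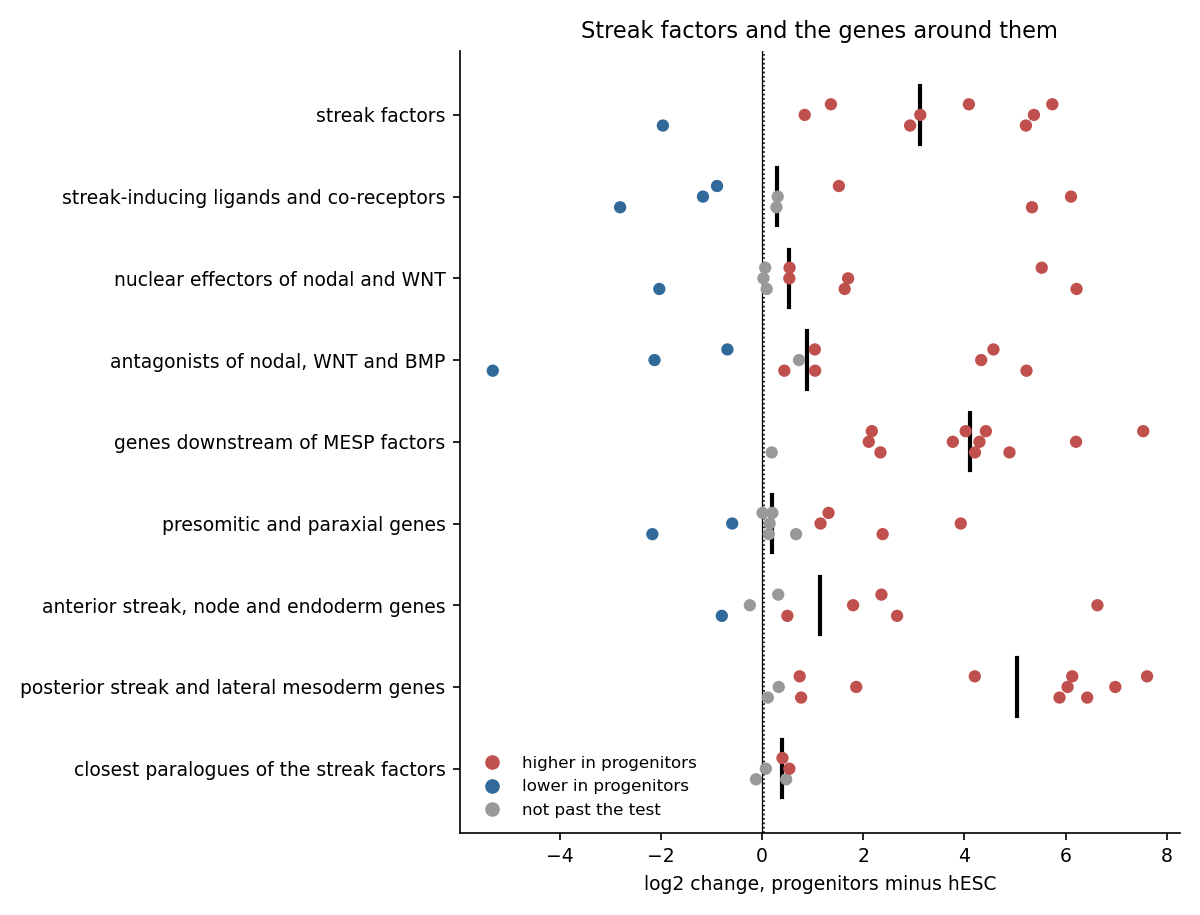
Log2 change, progenitors minus hESC, 1 point per gene, for the streak factors and 8 lists of genes around them; the black bar is the list median and the dotted line the median of all genes, 0.04. Medians run from 0.20 for presomitic and paraxial genes to 5.04 for posterior streak and lateral mesoderm genes.

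Genes with the profile closest to a streak factor were taken by the root mean square distance over the 6 arrays, after each gene's hESC mean was subtracted. For TBXT these were SVEP1, an adhesion protein, P3H2, a collagen-modifying enzyme, and the bHLH repressor BHLHE40, at distances of 0.05 to 0.11 log2 units. For EOMES they were RGS13, SP5 and HOPX, at 0.26 to 0.27, and for EVX1 MMP16, BDNF and FOXO1, at 0.10 to 0.20. The likeness is one of size of change over 2 groups of arrays and describes nothing further.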

How the data were processed

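The deposited table holds 1 intensity per probe set and array, on a linear scale, and how the authors summarised probes, corrected background and scaled arrays is not given in the sources used here. A share of 2.15% of these values equals 1, and a few are lower. The labels' protocols name column-purified RNA and amplified biotinylated cRNA. Intensities were converted to log2(intensity + 16) and quantile-normalized. Probe sets were named from the platform annotation, with 41091 having 1 gene, 1801 several and 11777 none, beside 6 of the 62 array controls, which also carry a gene name. All 62 controls were left out of the tests. Each gene was its probe set with the highest mean. The fits used limma 3.58.1 in R 4.3.3, two-sided, over 19775 genes or 54613 probe sets. Figures used matplotlib 3.10.9. The labels do not say whether replicates were separate cultures, so p-values measure the spread between samples, which may be technical, and 3 arrays per group limit the precision. The named genes were all members, the sort antigens and, by a fixed rule, genes from each of the 8 lists around the streak factors. The rule took the 3 largest calls, the largest call against the list's median and the brightest gene not called. Members, lists and settings were chosen with earlier results of these data known. The same rule picked NANOG, CDH5 and others from the marker lists, and not all of its picks there are named. LIN28A, VTCN1, CGA, TEK, CD34 and the genes of the array comparison were named after their values were seen. Alternatives were 2 pseudocounts, 3 other scalings (none, median centring of each array over its genes, and scaling on the bioB, bioC and bioD controls), 2 filters on dim genes, other variance models, a replicate block, other probe set choices and leaving out each array.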

Additional observations from a re-analysis of the deposited data

How the results depend on the processing

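All 165 values of the 9 streak factors under 19 alternatives kept their direction and stayed past the threshold, where the gene was measured. GSC was not tested with the dimmest 30% of genes left out. EVX1 was not tested without probe sets ending _s_at, _x_at or _a_at, since both of its probe sets have such an ending. The number of streak factors called was 5 of the 9, and that of genes on the lists 36, against 57, when the dimmest 50% of genes were left out, since TBXT, GSC, EVX1 and TBX6 and other dim genes were then not tested. Leaving out 1 array at a time gave 9 streak factors called each time, 11 to 12 probe sets, 54 to 58 list genes and 7905 to 9338 of all genes. The share of called genes that were higher was 55.8%, against 37.3% with median centring of the arrays and 80.4% with scaling on hybridization controls. Under these the median change over all genes was -0.15 and 0.29, and no streak factor changed direction. On the mean of all probe sets of a gene CTNNB1 turned, to -0.33, and the changes of MESP1 (2.01), NODAL (-1.50), CFC1 (2.97), LEF1 (2.79), GATA4 (1.61), LFNG (-1.08), FOXC2 (1.18), GATA6 (3.32) and GATA2 (3.28) were smaller by over 1.5 times, as was MSX1 (3.16) without sets that can match several transcripts. FOXC2 differed by 1.25 at a pseudocount of 64 and by 3.70 at 1. The values gave no sign that replicate numbers pair the samples, but 3 arrays per group cannot exclude such pairing. Same-numbered arrays had correlations of -0.02, 0.03 and -0.04 between their deviations from the group means. Not every array correlated best with its own number. With the replicate block 9 streak factors and 12 probe sets were called, against the same numbers without it, and 8880 of all genes, against 9463. The deposited intensities carry no detection calls, so a background limit for dim genes such as GSC cannot be given.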

Other observations

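Amnion and trophoblast genes, which BMP4 is known to induce in stem cell cultures, were higher in part. Of 6 measured, 4 were higher, 0 were lower (0 also at an unadjusted p under 0.05 in limma) and 2 did not pass, with a median log2 change of 0.82. Of all genes, 26.7% were higher and 21.2% lower. TFAP2A, a factor of surface ectoderm and trophoblast, was higher by 4.19, the keratin KRT7 by 2.01, the amnion gene GABRP by 1.04 and VTCN1 by 0.60. CGA, the hormone subunit of syncytiotrophoblast, differed by 0.11 and GCM1, the factor of trophoblast fusion, by 0.17, without passing. The summed intensity of the 6 genes lay between 669 and 735 on the progenitor arrays and between 91.2 and 98.9 on the hESC arrays. TFAP2A and KRT7 were the brightest of the 6 in the progenitors, at mean log2 levels of 8.69 and 7.72.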
